A study of Mus musculus with 18 samples.

Results

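Oxtr encodes the oxytocin receptor, and it was followed here as a single gene of 31053 features through single cell transcriptomes of the mouse mammary gland. Its raw counts and its share of positive cells were taken in basal and luminal cells of all 17 mammary libraries, and its level was set against those of Acta2 and Myh11 across ages and across individual basal cells. Each library was made from total epithelium depleted of blood and endothelial cells by flow sorting. The paper also describes gates on CD24 and CD29 in this sort, written differently for different stages. Glands of several mice were pooled, so the library and not the cell is the replicate. The p-values measure the spread between pools, except in correlations over libraries of several stages. C57BL/6 mice gave 1 library each at embryonic day (E) 18.5, at 5 days after birth, at 2.5 weeks (pre-puberty) and at 10 weeks (adult), and at 5 weeks 1 library of dissected terminal end buds (TEBs) and 1 of ducts. The E18.5 rudiments came from Lgr5-GFP embryos, and TEBs and ducts were dissected from E-cadherin-GFP females. SWISS mice gave 1 adult library at 10 weeks. FVB/NJ mice gave 3 adult virgin libraries at 10 weeks, 2 at day 12.5 of pregnancy, 2 at day 18.5 of pregnancy, 2 at day 10 of lactation and 1 post-involution library labelled 3 weeks.

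Oxytocin, released from the posterior pituitary during suckling, reaches the gland by the circulation and binds this receptor on myoepithelial cells, the contractile basal cells that surround alveoli and ducts. The receptor couples to Gq proteins, phospholipase C beta releases calcium from internal stores, and myosin light chain kinase then drives actin and myosin filaments, which expels milk. Acta2 encodes smooth muscle alpha-actin and Myh11 smooth muscle myosin heavy chain, the filament proteins of this contraction. The alveolar cells that form in pregnancy make the milk, and they share a class here with luminal progenitor (LP) cells. Mature luminal (ML) cells carry the receptors for steroid hormones.

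Oxtr (ENSMUSG00000049112) lies on the minus strand of chromosome 6 of the mm10 assembly, at chr6:112473683-112489943. The main transcript has 2 exons, and the second, at chr6:112473683-112477321, holds the end of the coding sequence and a 3′ untranslated region of 3394 bases, where a 3′ library reads the gene. The neighbour on that side is Cav3, which is on the opposite strand at chr6:112459505-112472872 and does not overlap it. The first exon ends at base 112489943, and the RefSeq sequence immediately upstream of it (GRCm38.p6, chr6:112489944-112490075, minus strand) is shown because the relation of Oxtr to contractile genes is the pattern described below. It was searched on both strands for the CArG box, the binding motif of serum response factor, which is common near smooth muscle genes. Only the exact form CC(A/T)6GG was counted, so boxes that differ from it by a base were missed. For comparison, a segment from the promoter of Myl9, a contractile gene that holds the motif, is given with the CArG box in capitals (chr2:156775293-156775322, plus strand).
Oxtr upstream: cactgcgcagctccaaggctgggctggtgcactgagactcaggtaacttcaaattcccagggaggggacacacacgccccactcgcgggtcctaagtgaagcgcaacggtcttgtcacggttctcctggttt
Myl9 promoter: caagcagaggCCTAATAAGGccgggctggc
The window searched was RefSeq's for Oxtr (chr6:112489776-112490075), 250 bases before to 50 after a RefSeq start that lies inside the first exon given above, so it reaches less far upstream of base 112489943. It held no CArG box of the exact form given above. Of 32851 such windows in the mouse, 535 (1.63%) held one, and so did the window of 1 of the 15 contraction genes that had one (Myl9). A missing match says only that these letters are not in this window.

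After filtering, 132599 of 149371 barcodes were kept in 18 libraries including E18.5 skin, with 1700 to 13397 cells and a median of 2498 to 21609 unique molecular identifiers (UMIs) per cell in each library. Total counts ran from 9920346 to 93234616 UMIs, and any pair of libraries shared at most 2.41% of barcodes. Sharing was uneven. Adult FVB/NJ replicate 1 shared 1.61% with pregnancy day 12.5 replicate 1, 0.0373% with adult C57BL/6 and 0 with pre-puberty and adult FVB/NJ replicate 2. Pre-puberty and adult C57BL/6 shared 0.347%. The reason was not tested, and comparisons over all libraries do not account for it. The kept cells held 68753 Oxtr UMIs. Levels are given as counts-per-million values (CPM), the Oxtr UMIs scaled to the total UMIs summed over the cells of a class in a library, with exact 95% Poisson intervals. Shares of positive cells were taken after each cell was thinned to 2000 UMIs, with exact 95% binomial intervals, and shallower cells were left out. Both intervals cover counting error only.

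Basal cells held most of the Oxtr message. The 42499 cells of the basal class in 15 libraries were 34.4% of mammary cells and carried 81.3% of the mammary Oxtr UMIs. LP and alveolar cells carried 8.24%, ML cells 0.927% and cells of clusters left unnamed 8.92%. The basal label was given from Krt5, Krt14, Krt17, Trp63 and Col17a1, so their levels describe the class and do not test the label. Their median CPM over libraries in the basal class was 487, 2081, 1275, 99.0 and 119, against 4.03, 44.1, 13.5, 1.91 and 2.35 in LP and alveolar cells. In single libraries Krt14 was as low as 117 CPM in the basal class and as high as 1083 CPM in LP and alveolar cells. Acta2 was at a median of 9516 CPM in basal cells, 80.5 in LP and alveolar cells and 85.6 in ML cells, and Myh11 at 836, 5.43 and 6.28 CPM. Because the classes come from clusters of the same cells, basal against luminal is a description and was not tested.

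The Oxtr level in basal cells ranged from 15.8 to 970 CPM over the 15 libraries, with a median of 261. The highest was the pre-puberty library at 970 CPM (956 to 984), where 81.6% of thinned basal cells held an Oxtr UMI. Lactation replicate 2 followed at 579 CPM, then the pregnancy day 18.5 libraries at 443 and 392, post-involution at 354 and the ducts at 289. Adult FVB/NJ replicate 3 stood at 268 CPM, adult C57BL/6 at 261, lactation replicate 1 at 246 and adult FVB/NJ replicate 2 at 216. Pregnancy day 12.5 gave 213 and 193 CPM and adult FVB/NJ replicate 1 gave 160. Adult SWISS at 59.5 CPM (56.4 to 62.8) and the TEBs at 15.8 CPM (13.7 to 18.1) were the lowest. Counting intervals of neighbours overlapped between adult FVB/NJ replicate 3 and adult C57BL/6, between adult C57BL/6 and lactation replicate 1, between lactation replicate 1 and adult FVB/NJ replicate 2, and between that library and pregnancy day 12.5 replicate 2. The other neighbours were apart by more than counting error, which says nothing of the spread between animals.

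The young and single-library stages were set side by side without a test. TEBs and ducts of the same age, which were processed together, differed widely, with 198 Oxtr UMIs in 469 basal cells of TEBs against 3171 in 753 basal cells of ducts, and thinned shares of 3.84% and 42.0%. The TEB basal class also stood apart in other genes, with Myh11 at 18.6 CPM against 579 in ducts, Acta2 at 3914 against 8945, Krt14 at 117 against 1312, and 253 of its 469 cells holding a UMI of the proliferation genes Mki67 or Top2a. The summed level of 7 LP markers in it was 1172 CPM against 172 in the ductal basal class. The part of these differences in the low Oxtr level was not tested. Pre-puberty, adult C57BL/6 and adult SWISS were also processed together, and gave 970, 261 and 59.5 CPM. Positive shares in these 3 libraries were 81.6%, 37.3% and 11.9%. Pre-puberty was read with another version of Cell Ranger than the 2 adult libraries.

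No cluster passed as basal at E18.5 or at postnatal day 5, so these libraries are given by cluster. By the naming rules no cluster was called basal in a library that held an epidermal cluster, because epidermis shares the basal keratins. A missing label therefore does not show that basal cells were missing, and the paper describes a basal cluster at day 5 with Myh11 and Acta2. E18.5 cells that took the LP and alveolar label also enter the LP series below. At E18.5 the 7 clusters lay between 0.521 and 2.80 CPM, with 1 to 45 Oxtr UMIs each. The day 5 library held 1 cluster with a level like that of later basal cells: 434 cells, 1412 Oxtr UMIs and 382 CPM, with 78.8% of unthinned cells positive, Acta2 at 19289 CPM and Myh11 at 1045 CPM. A second day 5 cluster of 333 cells was at 37.2 CPM with Acta2 at 21.7 CPM. The other 11 day 5 clusters were at 0 to 18.2 CPM.

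Within the luminal classes, LP and alveolar cells were above ML cells in 13 of 15 libraries in CPM of all UMIs, the lactation libraries being the exceptions. There LP and alveolar cells were at 2.25 and 1.81 CPM, with 77.3% and 78.2% of their UMIs from 8 milk genes. ML cells were at 5.59 and 8.19 CPM, from 5 and 7 Oxtr UMIs. Outside the milk genes the LP and alveolar values were 9.91 and 8.30 CPM. ML values were not taken outside the milk genes, so whether these exceptions depend on the scaling was not tested. LP and alveolar Oxtr ranged from 1.81 to 189 CPM (median 15.6, 16 libraries) and ML Oxtr from 0.133 to 30.9 CPM (median 5.02, 15 libraries). The 16 libraries include E18.5, where 1721 cells took the LP and alveolar label from the marker lists and were at 2.80 CPM. The paper describes most cells of that rudiment as overlapping little with luminal cells. Basal cells were 2.20 to 320 times as high as LP and alveolar cells, with a median of 14.9, and 10.2 to 412 times as high as ML cells, with a median of 70.6. The highest ratios to LP and alveolar cells, 109 and 320, were in lactation replicates 1 and 2. Outside milk genes these libraries gave 420 and 660 CPM in basal cells, against 9.91 and 8.30 CPM in LP and alveolar cells. Without the cells of highest Scrublet score the ML median was 2.83 CPM. The narrowest ratio to LP cells was in TEBs, and the next was in adult SWISS, where LP cells at 23.9 CPM were among the higher LP levels while basal cells were near the bottom of their range. Pre-puberty LP cells were the highest of the LP series at 189 CPM and 26.7% positive (median 7748 UMIs per cell). In that library the Schwann cell class gave 7.83% positive cells (median 4036 UMIs), the erythroid class 3.57% and ML cells 3.499%. The Schwann cell class also held Acta2 at 1100 CPM and Myh11 at 166 CPM. The source of the Oxtr UMIs in these classes was not tested.

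**Figure D1:**
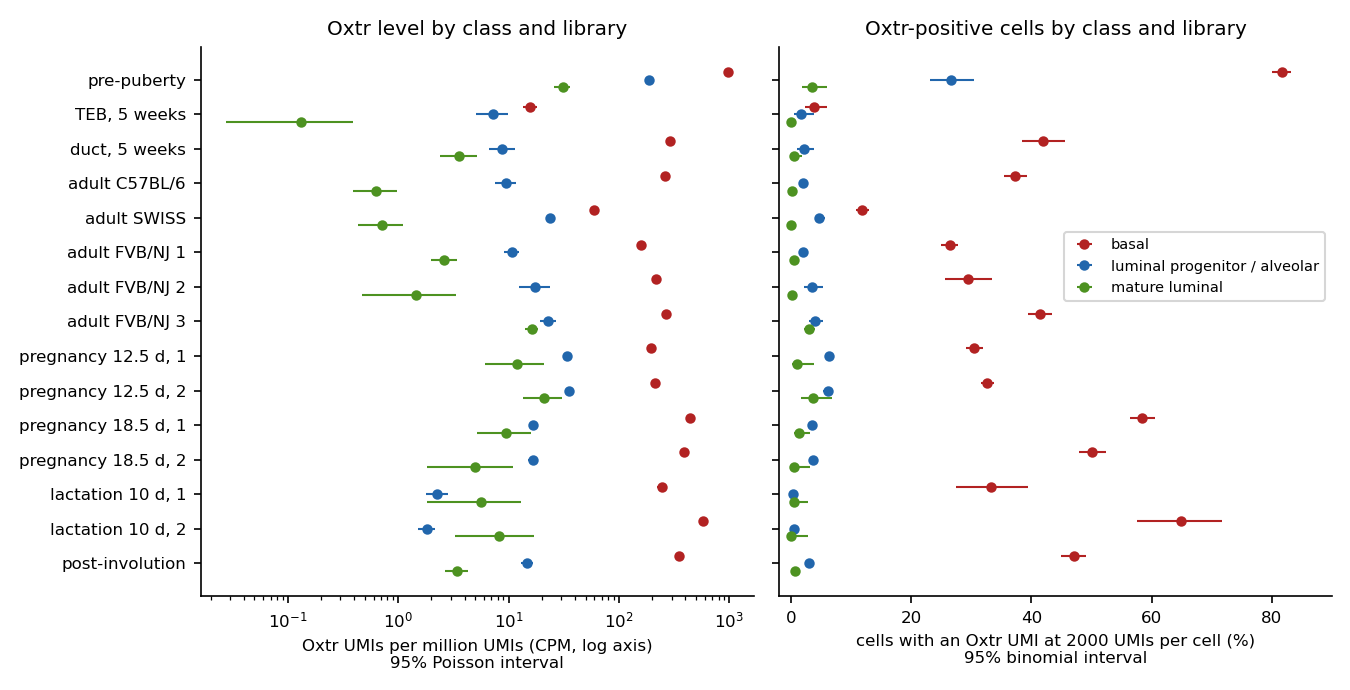
Oxtr in basal (red), luminal progenitor or alveolar (blue) and mature luminal cells (green) of 15 mammary libraries. The left panel gives CPM on a log axis with 95% Poisson intervals, the right panel the percentage of cells with an Oxtr UMI at 2000 UMIs per cell with 95% binomial intervals. Basal points run from 15.8 CPM in TEBs to 970 CPM at pre-puberty and lie to the right of both luminal classes in every library shown.

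The luminal signal was also taken relative to Acta2, and the part of free RNA in it was not tested. Oxtr UMIs per 100 Acta2 UMIs were higher in LP and alveolar cells than in basal cells of the same library in 15 of 15 libraries, by 1.24 to 49.3 times (median 5.01), with counting intervals apart in 15. In adult SWISS the values were 59.0 in LP cells and 1.196 in basal cells. In adult FVB/NJ replicate 3 they were close, at 3.89 and 3.13. ML cells gave a higher ratio than basal cells in 12 of 15 libraries, but the intervals were apart in 5 and the median was 1.41 times. LP and alveolar cells without a single thinned UMI of Acta2, Myh11, Krt5 or Krt14 included Oxtr-positive cells in 16 of 16 libraries, 569 of 21136 cells in all, at 0.281% to 22.3% per library (median 2.88%). E18.5 is among these libraries, with 1 of 313 such cells positive. For ML cells chosen alike the median was 0.366%, with 49 of 15081 cells positive.

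The FVB/NJ libraries allowed a test across the reproductive cycle. Basal Oxtr was 160, 216 and 268 CPM in the adult libraries (214 ± 53.9, SD, n = 3). At pregnancy day 12.5 it was 193 and 213 CPM (203 ± 13.5, n = 2), which is inside the adult range. Both pregnancy day 18.5 libraries lay above every earlier library, at 443 and 392 CPM (418 ± 35.9, n = 2). Of all genes, 62.7% showed no overlap between days 12.5 and 18.5. The lactation libraries were far apart, at 246 and 579 CPM (412 ± 235, n = 2), the lower one within the adult range. The cell filters kept 48.6% and 68.9% of the barcodes of these libraries, against 86.2% to 98.3% in the others. Milk transcripts took 41.5% and 12.3% of the UMIs of these 2 basal classes, against at most 3.51% in the other libraries of the cycle. When the total left out 8 milk genes the lactation values were 420 and 660 CPM, the day 18.5 values 459 and 401, and the adult values 160, 216 and 268.

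None of the 4 stage contrasts of basal Oxtr passed the adjusted threshold. With edgeR's quasi-likelihood test on UMI sums per library, the log2 difference was 0.04 ± 0.38 (SE) for pregnancy day 12.5 minus adult (adjusted p = 0.976), where 0.842% of 13301 genes were called (0.383% higher and 0.459% lower). It was 0.94 ± 0.42 for day 18.5 minus day 12.5 (unadjusted p = 0.0448, adjusted p = 0.563), a contrast in which edgeR called 0 genes against 172 by DESeq2, and in which 1138 genes fell under 0.05 before adjustment. It was 0.35 ± 0.41 for lactation minus day 18.5 (adjusted p = 0.863; 0.714% called, 0.616% higher and 0.0977% lower). For lactation minus adult it was 1.33 ± 0.37 (unadjusted p = 0.00433, adjusted p = 0.0881; 3.35% called). DESeq2 called this last contrast (1.38, adjusted p = 0.00101), and so did edgeR without adult FVB/NJ replicate 2 (1.28, adjusted p = 0.044), the library of lowest depth. That replicate had barcodes of 14 bases where all other libraries had 16. A difference that misses the threshold does not show that stages were equal.

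Shares of positive basal cells were compared over the same stages. After thinning they were 26.4%, 29.4% and 41.4% in the adult libraries, 30.5% and 32.6% at day 12.5, 58.5% and 50.2% at day 18.5, and 33.2% and 64.9% in lactation. Day 18.5 was again above every adult and day 12.5 library, and the lactation libraries fell on either side of it. Stage means spanned 22.7 percentage points, and the exact two-sided permutation test over all 7560 assignments of the 9 libraries gave p = 0.208 (smallest possible 0.00079). By the same exact test, thinning to 2000 UMIs outside the milk genes gave p = 0.046, and leaving out lactation replicate 1 gave 33.3 points and p = 0.0393. At 1000 UMIs per cell the lactation mean was the highest, 35.0% against 32.1% at day 18.5. Without thinning the exact p was 0.717 (15.01 points), and over the other alternatives it ran from 0.0988 to 0.357. With a marker gate in place of clusters the lactation mean was 31.4%, below the adult mean of 33.2% (exact p = 0.134). Thinning left out 71.0% and 54.8% of basal cells in lactation, 56.4% in day 18.5 replicate 1 and 54.5% in adult replicate 2.

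**Figure D2:**
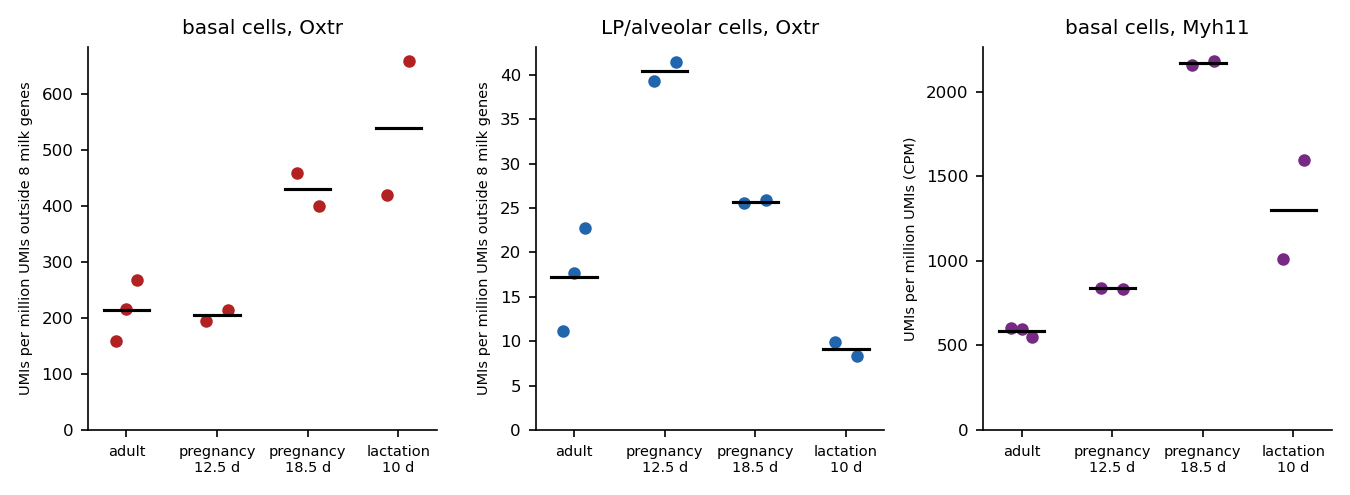
Levels in the 9 FVB/NJ libraries of 4 stages: Oxtr in basal cells and in LP or alveolar cells (CPM of UMIs outside 8 milk genes) and Myh11 in basal cells (CPM). Each point is a library and the bar is the stage mean. Basal Oxtr is above the adult values at day 18.5 (459 and 401) and in lactation (420 and 660), while LP and alveolar Oxtr is highest at day 12.5 (39.3 and 41.5).

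Acta2 and Myh11 were read in the same fit, with no test of a difference between them. Myh11 in basal cells was 605, 597 and 552 CPM in the adult, 842 and 836 at day 12.5, 2156 and 2181.8 at day 18.5, and 1012 and 1593 in lactation. Its libraries were tight within the first 3 stages, did not overlap between neighbouring stages, and were highest at day 18.5. Without overlap were 34.6% of genes between adult and day 12.5, 49.9% between day 18.5 and lactation, and 34.8% between adult and lactation. The Myh11 log2 difference was 1.27 ± 0.47 for day 18.5 minus day 12.5 (edgeR adjusted p = 0.465) and 1.61 ± 0.42 for lactation minus adult (adjusted p = 0.0653), and DESeq2 called both. Acta2 was 6966, 18469 and 8555 CPM in the adult, 16065 and 15611 at day 12.5, 28541 and 19831 at day 18.5, and 9516 and 9344 in lactation. The 3 adult libraries spanned the Acta2 values of day 12.5 and of lactation, and the lactation minus adult difference was 0.32 ± 0.66 (adjusted p = 0.839).

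The other genes of the oxytocin pathway were read from fixed lists in the same fit. In lactation against adult, 4 of 19 contraction genes were called higher and 0 lower, with 2.5% of all genes called higher and 0.85% lower, and the median of the list was 1.04 log2 against -0.13 over all genes. Ppp1r12b, a subunit of myosin phosphatase, rose from 9.25, 12.97 and 21.1 CPM to 51.2 and 65.8 (log2 2.52 ± 0.38, edgeR adjusted p = 0.00425). Ppp1r14a, an inhibitor of that phosphatase, rose by 2.81 ± 0.53 (adjusted p = 0.0154), the myosin light chain kinase gene Mylk by 2.19 ± 0.51 (0.0407) and Lmod1, a leiomodin that nucleates actin filaments, by 1.81 ± 0.41 (0.0369). Mylk lost the call on leaving out any of 8 of the 9 libraries and Lmod1 any of 7, with adjusted p up to 0.248 and 0.175, whereas Ppp1r12b kept it in all 9. Ppp1r14a and Rgs2 lost it in 2 of 9. Under 4 of 10 other settings Lmod1 and Mylk also lost it (adjusted p up to 0.331 and 0.196), and Ppp1r14a (0.104) and Rgs2 (0.0954) did with cells of 1000 or more genes.

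Upstream and feedback members were read in the same contrast, in which 2.5% of all genes were called higher. Of 11 tested Gq and calcium genes 1 rose in lactation, Plcb1, a phospholipase C beta (43.5 and 112 CPM in lactation against 10.2 to 25.9 in the adult, log2 2.54 ± 0.39, edgeR adjusted p = 0.005). Gnaq, the Gq alpha subunit, was at 0.28 ± 0.47 and did not pass. Of 8 tested desensitization genes 2 rose, both of which encode regulators that shorten G protein signals: Rgs2 (2.45 ± 0.44, adjusted p = 0.0116) and Rgs5 (5.84 ± 0.997, adjusted p = 0.00922). Rgs5 was 15.9 and 100 CPM in lactation against 0.0959 to 2.80 in the adult. Rgs5 is also a mural cell marker, and in the basal class of lactation replicate 2 the summed level of 6 mural markers was 120 CPM, with 2.67 to 11.9 in the adult and 18.8 in lactation replicate 1. In the same class 5 endothelial markers summed to 198 CPM (adult 4.58 to 6.83), 6 immune markers to 861 (3.21 to 71.6) and 5 erythroid markers to 2128 (0 to 3.71), with none of these markers at 0. Without lactation replicate 2, Rgs5 (adjusted p = 0.142) and Plcb1 (0.0579) were not called. No list member was called in the other 3 contrasts, where the share of all genes called was also small. It was 0.842% for day 12.5 minus adult, 0% for day 18.5 minus day 12.5 and 0.714% for lactation minus day 18.5.

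The Oxtr values in lactation were then taken without basal cells that held a UMI of a mural, endothelial or immune marker, a choice made after the data were seen. This left out 31.1% of basal cells of lactation replicate 2 and 9.62% of replicate 1, and 6.78%, 6.97% and 26.6% in the adult. Oxtr was then 614 and 240 CPM in lactation replicates 2 and 1, against 579 and 246 with all basal cells. The lactation minus adult difference was 1.36 ± 0.39 (edgeR adjusted p = 0.111).

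Neither ligand nor sister receptors were found at more than traces in basal cells. Oxt, the oxytocin gene, was at 0 to 1.01 CPM in the 9 libraries and Avp, for vasopressin, at 0 to 0.381. The vasopressin receptors Avpr1a, Avpr1b and Avpr2, which oxytocin can also bind, stayed at or below 0.104 CPM and were not tested, so Oxtr was the 1 of 4 receptors that passed the filter. Lnpep, an aminopeptidase that breaks oxytocin down, was at 6.10 to 40.5 CPM and was not called in any contrast. Of the regulators of contractile genes, Srf, Mkl1 and Mkl2 were tested and none was called, with 0% to 3.35% of all genes called per contrast. Myocd was at most 1.01 CPM.

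In LP and alveolar cells Oxtr was 10.7, 17.4 and 22.7 CPM in the adult, 33.8 and 35.4 at day 12.5, 16.6 and 16.5 at day 18.5, and 2.25 and 1.81 in lactation. The day 12.5 libraries were above all others, and the lactation libraries below all others. Of all genes in this class, 46.5% showed no overlap between adult and day 12.5, 75.2% between days 12.5 and 18.5, 90.7% between day 18.5 and lactation and 82.2% between adult and lactation, so such separation was common. Milk genes took 0.197% to 3.76% of the UMIs of this class in the adult, 13.9% and 14.7% at day 12.5, 35.1% and 36.3% at day 18.5, and 77.3% and 78.2% in lactation. Outside milk genes Oxtr was 11.1, 17.7 and 22.8, then 39.3 and 41.5, then 25.6 and 25.9, then 9.91 and 8.30 CPM, so lactation remained lowest. The rise at day 12.5 was called (log2 1.42 ± 0.28, edgeR adjusted p = 0.011; 13% of genes called). It was no longer called without either day 12.5 library (adjusted p = 0.105 and 0.125). In the same class and contrast the basal genes Acta2 and Myh11 were at 1.40 ± 1.03 and 1.17 ± 0.78 (adjusted p = 0.393 and 0.348), with Acta2 at 80.1, 51.2 and 585 CPM in the adult and 401 and 551 at day 12.5. Day 18.5 minus day 12.5 was -0.56 ± 0.30 (adjusted p = 0.41; 1.24% called), lactation minus day 18.5 was -1.30 ± 0.32 (adjusted p = 0.0591; 2.94% called) and lactation minus adult -0.44 ± 0.29 (adjusted p = 0.288; 28.6% called). Lactation minus day 18.5 was called under 4 of 8 other settings and without any 1 adult library. With library totals only it was -3.03 (adjusted p = 0.000934), and lactation minus adult was -3.05 (6.54e-05). Acta2 and Myh11 were at -1.87 ± 1.18 and -1.27 ± 0.87 for lactation minus day 18.5 (edgeR adjusted p = 0.502 and 0.542). The part of basal transcripts in the LP and alveolar values was not tested.

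No contrast was called in ML cells, where Oxtr counts were small, and for the later contrasts 0.0667%, 0.0222% and 4.61% of genes were called. The log2 difference was 1.16 ± 0.86 for day 12.5 minus adult (edgeR adjusted p = 0.439; 8.58% of genes called), and 2.77 with adjusted p = 0.0212 without adult FVB/NJ replicate 3, which alone of the adult libraries was at 16.2 CPM while the others were at 2.63 and 1.45. The day 12.5 libraries gave 11.9 and 20.8 CPM from 12 and 25 UMIs. Acta2 in the same ML classes was 604 CPM in adult FVB/NJ replicate 3 against 85.6 and 46.3 in the other adult libraries, and 460 and 742 at day 12.5. Myh11 was 24.0 CPM in that adult replicate against 6.28 and 1.45. The part of basal transcripts in the ML values was not tested.

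The basal and the LP changes were compared in 1 fit. The basal change minus the LP and alveolar change was -1.30 ± 0.24 for day 12.5 minus adult (edgeR adjusted p = 0.00667; 9.18% of 14495 genes called). For day 18.5 minus day 12.5 it was 1.47 ± 0.25 (adjusted p = 0.0178; 2.07% called), for lactation minus day 18.5 it was 1.60 ± 0.27 (adjusted p = 0.0139; 1.54% called) and for lactation minus adult 1.77 ± 0.25 (adjusted p = 0.000811; 19.2% called). These contrasts share libraries. Lactation minus adult kept its call on leaving out each library in turn (adjusted p at most 0.0115). The others lost it in 2, 4 and 2 of the 9 leave-outs: day 12.5 minus adult without either day 12.5 library, day 18.5 minus day 12.5 without any library of these stages, and lactation minus day 18.5 without day 18.5 replicate 2 or lactation replicate 2. With library totals only, lactation minus adult was 3.87 and lactation minus day 18.5 was 2.91.

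Across the 15 libraries with a basal class, Oxtr rose with Myh11. Pearson's r of log2(CPM + 1) was 0.89 (permutation p = 7e-05, adjusted over 4 values 0.00028) and Spearman's rho 0.70 (permutation p = 0.00493, adjusted 0.00986). The permutations treated all libraries as exchangeable, although replicates share a stage and libraries differ in strain and age. Their p-values therefore do not measure the spread between pools. Without TEBs and day 18.5 replicate 2, the libraries farthest from the Myh11 median, r was 0.73. For Acta2 r was 0.63 (permutation p = 0.0106, adjusted 0.0142) and rho 0.44 (permutation p = 0.102). Without day 18.5 replicate 1 and TEBs the Acta2 r was 0.39, and without TEBs alone 0.43 (permutation p = 0.124, adjusted 0.165), so the pooled Acta2 relation did not hold without TEBs. Within the 10 FVB/NJ libraries r was 0.72 for Myh11 (permutation p = 0.0204, adjusted 0.0816) and 0.19 for Acta2 (permutation p = 0.602). In this set rho for Myh11 was 0.55 (permutation p = 0.106, adjusted 0.212), and 0.21 without both day 18.5 libraries. The other set holds 5 libraries, fewer than were required here for a correlation. Its Acta2 levels were 12412 CPM at pre-puberty, 8945 in ducts, 9560 in adult C57BL/6, 4978 in adult SWISS and 3914 in TEBs, the order of their Oxtr levels except for ducts and adult C57BL/6.

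**Figure D3:**
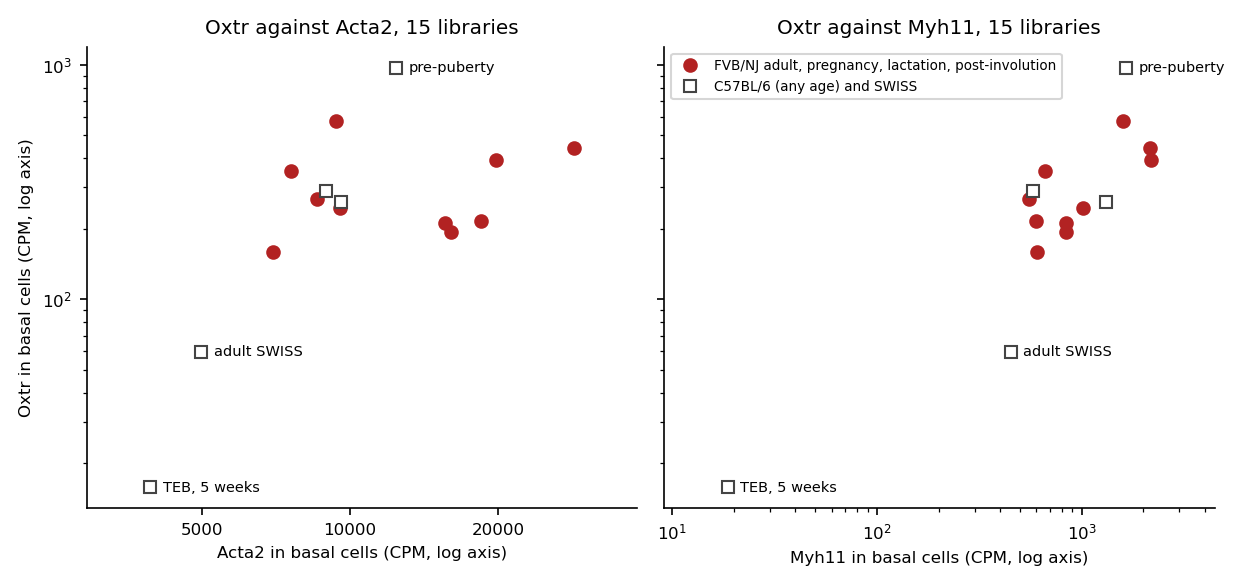
Oxtr against Acta2 (left) and Myh11 (right) in basal cells of 15 libraries, in CPM on log axes. Red circles are FVB/NJ libraries and open squares the C57BL/6 and SWISS libraries. TEBs are lowest on all 3 genes, pre-puberty is highest in Oxtr, and r is 0.89 for Myh11 and 0.63 for Acta2.

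Genes most like Oxtr over these libraries were ranked by r among 7580 genes with a mean of at least 10 CPM in basal cells. The first 10 were Lmod1 (0.95), Aoc3 (0.95), Cdh13 (0.93), Epas1 (0.93), Casp12 (0.93), Fhod3 (0.91), Sdk1 (0.91), Smtn (0.90), Cp (0.90) and Tppp3 (0.90). Lmod1 and Smtn, for smoothelin, belong to the contraction list, Aoc3 encodes an amine oxidase of smooth muscle, Fhod3 an actin-organizing formin, Cdh13 an adhesion protein, Epas1 a hypoxia-inducible transcription factor and Cp ceruloplasmin. Lmod1 ran from 12.99 CPM in TEBs to 550 in lactation replicate 2. Myh11 ranked 20 and Acta2 453, 106 genes had r over 0.8, and the median r was -0.04. Each of the first 10 genes was lowest in TEBs. Within the 10 FVB/NJ libraries Lmod1 ranked 5, Epas1 10 and Smtn 15, and the others of the first 10 ranked from 52 (Cp) to 318 (Tppp3). In that set Myh11 ranked 165 and Acta2 2451. All points share the depth and the makeup of their libraries, and r is given as a description.

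Within libraries, basal cells with an Oxtr UMI held more Acta2 and Myh11 than basal cells without one. The comparison used cells thinned to 2000 UMIs in 14 libraries, TEBs having too few positive cells, with the exact two-sided sign-flip permutation test over libraries. For Acta2 the log2 ratio of means was 0.20 ± 0.18 (SD over libraries), higher in 14 of 14 libraries (exact p = 0.00012, the smallest possible, adjusted over 4 genes 0.00024). Mean Acta2 UMIs were 19.6 in positive and 14.4 in negative cells of adult FVB/NJ replicate 1, 22.7 and 15.7 in lactation replicate 1, and 38.9 and 38.7 in day 18.5 replicate 2. For Myh11 the ratio was 0.31 ± 0.18, also higher in 14 of 14 libraries (adjusted exact p = 0.00024). Its mean UMIs were 1.92 and 1.17 in adult FVB/NJ replicate 1, 4.03 and 2.89 in lactation replicate 2 and 4.58 and 4.39 in day 18.5 replicate 1. The Acta2 ratio was smallest in the day 18.5 libraries, at 0.0053 and 0.017.

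Basal keratins, which are not contractile genes, were compared in the same way. Krt14 was higher in 11 of 14 libraries (log2 0.15 ± 0.24, adjusted exact p = 0.0365), and the call was lost on leaving out any of 6 libraries: ducts, adult FVB/NJ replicate 1, adult SWISS, day 12.5 replicate 1, day 18.5 replicate 2 or lactation replicate 1 (adjusted exact p of 0.055 to 0.0729). Krt5 was higher in 11 of 14 (0.09 ± 0.29, adjusted exact p = 0.273), and 0.15 without lactation replicate 2 (adjusted exact p = 0.00391). Lactation replicate 2 alone was at -0.70 for Krt5. In the edgeR fit over all genes given below, Krt14 was at 0.11 ± 0.04 (edgeR adjusted p = 0.153) and Krt5 at 0.11 ± 0.05 (0.239). Neither was called there, but Krt5 was without both lactation libraries (0.14, edgeR adjusted p = 0.0305). The difference between the contractile genes and the keratins was not tested, and with each library's own clusters Krt14 and Acta2 were both at 0.23.

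**Figure D4:**
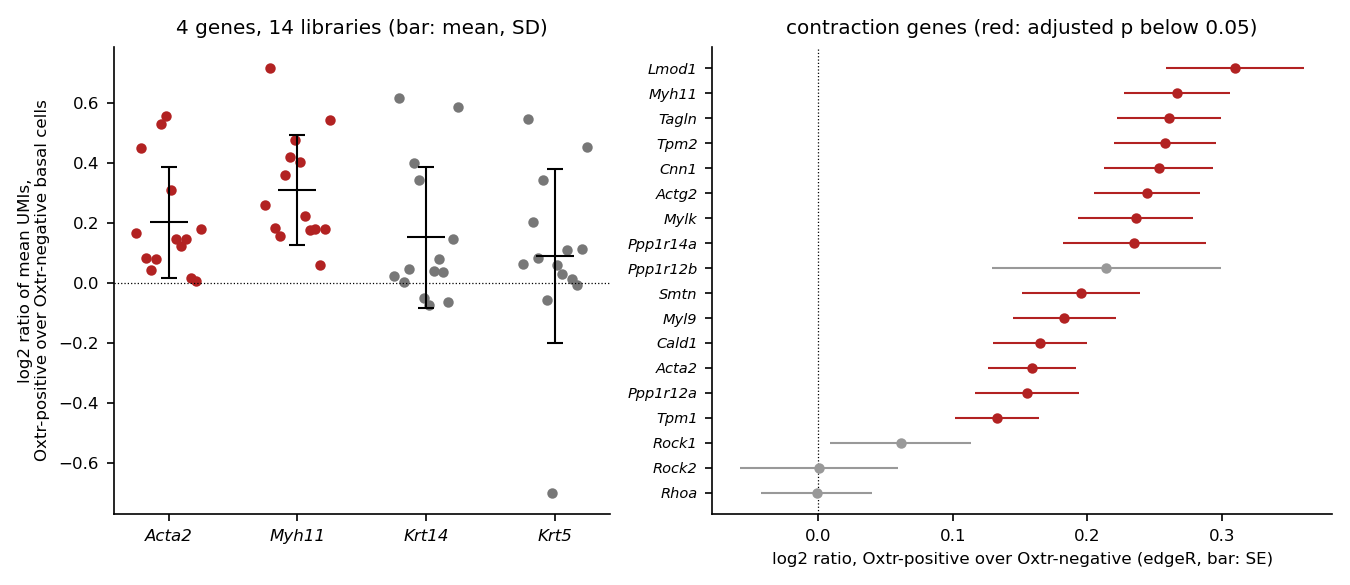
Oxtr-positive against Oxtr-negative basal cells at 2000 UMIs per cell in 14 libraries. Left, log2 ratio of mean UMIs per library (points) with mean and SD for Acta2 and Myh11 (red) and the basal keratins Krt14 and Krt5 (grey); every Acta2 and Myh11 point is above 0. Right, edgeR log2 ratio with SE for 18 contraction genes, 14 of them past the adjusted threshold (red).

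The same contrast over all genes, with library as a block, called 303 of 9214 genes (3.29%), 156 higher (1.69%) and 147 lower (1.6%). Of 18 tested contraction genes 14 were higher and 0 lower, and the median of the list was 0.20 log2 against -0.006 over all genes. At 1000 UMIs per cell 10 of 18 were higher, and Myl9, Smtn, Ppp1r14a and Ppp1r12a were not called (edgeR adjusted p of 0.0549 to 0.103). Without cells holding a UMI of Mki67 or Top2a 13 of 18 were higher, and Tpm1 was at 0.10 (edgeR adjusted p = 0.0566). Lmod1 led with 0.31 ± 0.05, then Myh11 with 0.27 ± 0.04, Tagln (transgelin) with 0.26 ± 0.04, Tpm2 (tropomyosin) with 0.26 ± 0.04 and Cnn1 (calponin) with 0.25 ± 0.04, each higher in 14 of 14 libraries (edgeR adjusted p at most 0.00011). Acta2 was at 0.16 ± 0.03 (edgeR adjusted p = 0.00216). Of the 4 members not called, Ppp1r12b was at 0.21 ± 0.09 (edgeR adjusted p = 0.195) and the others lay between -0.0013 and 0.06. No member of the Gq and calcium (10 tested), desensitization (6), ligand and breakdown (1) or regulator (3) lists was called. Of 7 tested milk genes Csn3, Csn2 and Csn1s1 were lower, at -0.23, -0.21 and -0.20 (adjusted p of 0.0194 to 0.0436), and none of the 3 was called without both lactation libraries, without the cells of highest Scrublet score or at 1000 UMIs per cell. With a marker gate they were at -0.70, -0.74 and -0.72.

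Outside the lists, the 10 called genes of largest ratio were split between both directions. Mme (0.54 ± 0.07), the cell-surface peptidase neprilysin that marks myoepithelium, and Map1b (0.52 ± 0.08), a microtubule-associated protein, were higher in 14 of 14 libraries. Samd4 (0.54 ± 0.09), Krt42 (0.54 ± 0.13) and Lims2 (0.49 ± 0.13), a focal adhesion protein, were higher in 13, 9 and 12. Lims2 was at 0.17 at 1000 UMIs per cell (edgeR adjusted p = 0.656) and was not called with a marker gate (0.143). Fabp5, a fatty acid-binding protein, was lower in 14 of 14 libraries (-0.54 ± 0.07, edgeR adjusted p = 2.44e-06). Etv4, an ETS transcription factor, was lower in 13 of 14 (-0.52 ± 0.11, not called at 1000 UMIs with adjusted p = 0.116), and Csrp2 (-0.70 ± 0.14) and Pclaf (-0.53 ± 0.12), a factor of DNA replication, in 10. Fabp4, a marker of fat cells and capillaries, had the largest ratio (-0.73 ± 0.13) but was higher in 6 of 14 libraries, and without both lactation libraries it was at -0.12 (adjusted p = 0.864).

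The relation was also read in steps. Basal cells of each library were ranked by thinned Acta2 UMIs, and the Oxtr-positive share was higher in the highest than in the lowest quartile in 14 of 14 libraries, by 1.88 to 31.3 percentage points (median 11.7). The median share was 32.2% in the lowest and 46.2% in the highest quartile. Adult FVB/NJ replicate 1 rose from 12.7% through 24.0% and 29.4% to 39.6%, and lactation replicate 2 from 40.4% to 82.6% in the third and 71.7% in the highest quartile. Adult SWISS (11.2% and 13.1%) and day 18.5 replicate 1 (57.9% and 60.0%) changed little. In the 11 libraries with enough cells at each step, the median over libraries of mean UMIs per cell was taken separately at each step. For Acta2 it was 18.6 in cells without Oxtr, 21.8 with 1 Oxtr UMI and 25.4 with 3 or more. These values came from ducts, lactation replicate 2 and pre-puberty, so they do not give the rise within a library. From 0 to 3 or more Oxtr UMIs, mean Acta2 went from 18.6 to 20.97 in ducts and from 22.05 to 25.4 at pre-puberty. It went from 16.58 to 30.58 in lactation replicate 2 and from 38.7 to 35.5 in day 18.5 replicate 2. The Myh11 medians went from 1.68 through 1.85 to 2.35. Myh11 was higher at 3 or more than at 0 in 11 of 11 libraries, Acta2 in 10 of 11. Within each library's own basal clusters the direction was mostly the same: of 26 clusters, Myh11 was higher in positive cells in 26 (median log2 0.18) and Acta2 in 21 (median 0.08).

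**Figure D5:**
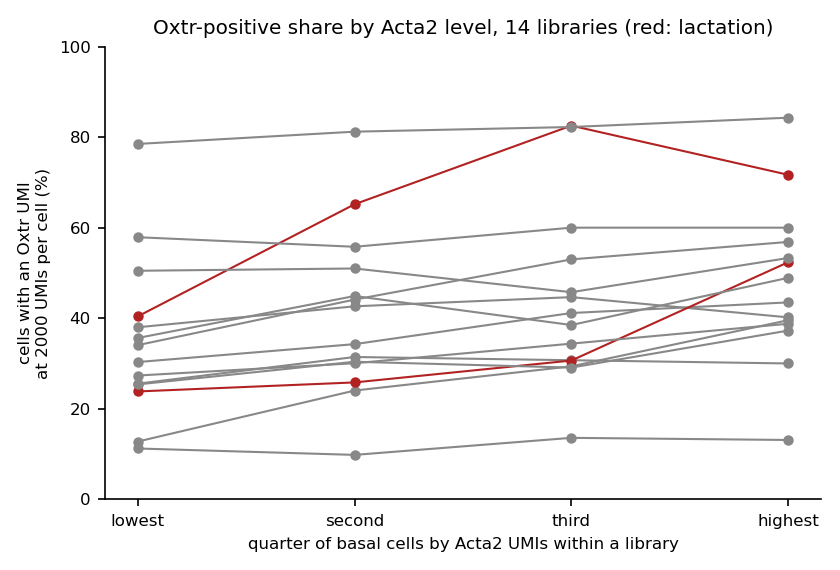
Percentage of basal cells with an Oxtr UMI at 2000 UMIs per cell, by quartile of Acta2 UMIs within each of 14 libraries (1 line per library, lactation in red). The highest quartile is above the lowest in every line, with medians of 32.2% and 46.2%, while several lines are nearly flat.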

How the data were processed

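Raw count matrices of 18 libraries (17 mammary, 1 skin) were deposited by the authors as UMI counts per gene and cell, made with Cell Ranger on mm10 (3.0.2 in the file headers, 3.1.0 for day 5 and pre-puberty). The libraries hold 3′ ends read on 10x chips. Cells had at least 500 genes and stayed within limits on genes, UMIs and mitochondrial share for each library. Doublets were otherwise kept, and dropping the cells of highest Scrublet score (scanpy 1.11.5) was an alternative. Classes came from clusters (Seurat 5.3.0, 20 components, resolution 0.3, or 0.1 for 10 joined FVB/NJ libraries) named from marker lists. Counts were summed per library and class and tested with edgeR 4.0.16 (TMM, filterByExpr, Benjamini-Hochberg, 5%), with DESeq2 1.42.0 as an alternative. Correlations used 1e+05 permutations. Positive and negative cells were compared in libraries with at least 20 positive cells. Named genes were Oxtr, Acta2, Myh11, Krt5, Krt14, ligand and receptors, called list members, and the first 10 by likeness or by ratio at a mean of 20 CPM or more. The gene, lists and tests were chosen with earlier results of these data known. The tests were checked on simulated data.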

Additional observations from a re-analysis of the deposited data

Results flagged for a closer look

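The Oxtr change in basal cells differed from that in LP and alveolar cells in each of the 4 stage contrasts, by a test of the difference itself (edgeR's quasi-likelihood test, Benjamini-Hochberg adjusted). The basal change minus the LP and alveolar change was -1.30 log2 for pregnancy day 12.5 minus adult (adjusted p = 0.00667), 1.47 for day 18.5 minus day 12.5 (0.0178), 1.60 for lactation minus day 18.5 (0.0139) and 1.77 for lactation minus adult (0.000811). The 4 contrasts share libraries and are not independent. The first 3 lost the call on leaving out any of 2, 4 and 2 of the 9 libraries (adjusted p up to 0.106, 0.278 and 0.131). The first also lost it with library totals only (0.109) and the third with cells of 1000 or more genes (0.0804).

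The E18.5 skin library, which enters none of the comparisons, held 109 Oxtr UMIs in its 9025 kept cells, above the 3 counts that a count of 0 allows. The E18.5 mammary library, processed together with it, held a similar number, 104 in 6398 kept cells. Whether the low mammary values at E18.5 differ from those of skin was not tested. Skin holds no mammary epithelium by its label, and the cells that carried these UMIs were not examined.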

How the results depend on the processing

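In the mean over libraries, Acta2 and Myh11 stayed higher in Oxtr-positive basal cells under every alternative run. By library, Acta2 was higher in 12 of 14 at 1000 UMIs per cell and in 13 of 14 without cells holding a UMI of Mki67 or Top2a. The basal minus LP change for lactation minus adult kept its call in each alternative, at 1.43 to 3.87. With DESeq2, Myh11 for day 18.5 minus day 12.5 (1.247), Oxtr (1.38) and Myh11 (1.65) for lactation minus adult, and LP Oxtr for lactation minus day 18.5 (-1.27) were called. With library totals only, which shifted the median basal gene by -0.60 and the median LP gene by -2.63 for lactation minus adult, basal Oxtr reversed to -0.079 (day 12.5 minus adult) and -0.019 (lactation minus day 18.5), Acta2 to -0.26 (lactation minus adult), and ML Oxtr to -0.093 and -0.029 (lactation minus day 18.5 and minus adult). LP Oxtr was then 1.04 and not called for day 12.5 minus adult, -3.03 and -3.05 and called for lactation minus day 18.5 and minus adult, and the basal minus LP change for day 12.5 minus adult was -1.15 and not called. With cells of 1000 or more genes, Oxtr for lactation minus day 18.5 (-0.063) and Acta2 for lactation minus adult (-0.13) reversed, and the basal minus LP change for lactation minus day 18.5 (1.21) lost its call. With a marker gate in place of clusters, Oxtr for day 12.5 minus adult (-0.0041) and lactation minus day 18.5 (-0.21) and Acta2 for lactation minus adult (-0.28) reversed, Krt5 in positive cells was called (0.18), and pre-puberty basal Oxtr was 956 CPM. With each library's own clusters, Oxtr for day 12.5 minus adult (-0.19) and ML Oxtr for lactation minus day 18.5 (-0.058) reversed and Krt5 was called (0.15). Without a filter on low counts, LP Oxtr for lactation minus day 18.5 (-1.35) was called. Without cells of highest Scrublet score it was also called (-1.46), ML Oxtr for lactation minus adult reversed (-0.30) and Krt14 (0.14) was not called. The share over stages passed outside milk genes (23.6 points). Pearson correlations not past the threshold included Acta2 (0.19) and Myh11 (0.72) within FVB/NJ and Acta2 without TEBs (0.43) or without the 2 farthest libraries (0.39). Spearman's rho for Acta2 over all 15 libraries (0.44, permutation p = 0.102) did not pass either. The cause of these changes was not tested.

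Genes called in basal cells in the 4 contrasts were 112, 0, 95 and 445, and 631, 172, 325 and 823 with DESeq2. They were 1032, 347, 586 and 1232 without a filter, 281, 9, 94 and 194 with cells of 1000 or more genes, 86, 1, 596 and 1252 with the gate, and 98, 10, 82 and 412 with own clusters. Leaving out a library gave 1 to 664, 0 to 99, 0 to 220 and 184 to 709. Between positive and negative cells 303 of 9214 tested genes were called at 2000 UMIs and 116 of 6894 at 1000 UMIs.

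Leaving out each library in turn gave these ranges, in the order day 12.5 minus adult, day 18.5 minus day 12.5, lactation minus day 18.5 and lactation minus adult. Basal Oxtr ran from -0.087 (without adult replicate 1) to 0.23 (also reversed without adult replicate 2 at -0.02 or day 12.5 replicate 2 at -0.03), 0.77 to 1.05, 0.12 to 0.53 and 1.10 to 1.53. Myh11 ran from 0.57 to 0.72, 1.198 to 1.29, -0.38 to -0.21 and 1.53 to 1.70 (called without adult replicate 2). Acta2 ran from 0.42 to 1.07, 0.14 to 0.78, -1.31 to -0.46 and -0.14 (without lactation replicate 1) to 0.77. LP Oxtr ran from 1.24 to 1.65, -0.62 to -0.48, -1.43 to -1.21 (called without each adult library) and -0.62 to -0.20, and ML Oxtr from 0.71 to 2.77, -1.84 to -0.83, 0.32 to 1.23 and 0.11 to 2.16. The basal minus LP change ran from -1.35 to -1.22, 1.28 to 1.65, 1.26 to 1.87 and 1.43 to 2.04. The share range was 18.6 to 33.3 points. In positive cells Acta2 ran from 0.17 to 0.22, Myh11 from 0.28 to 0.33, Krt5 from 0.054 to 0.15 and Krt14 from 0.12 to 0.17.

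No paired analysis was possible because the replicate numbers of the groups name libraries only and the labels give the stages no shared numbers. Own-cluster classes, leaving out TEBs or pre-puberty, the luminal and all-gene alternatives and the removal of cells with other markers were chosen after seeing the data. ML classes of pregnancy and lactation held 182 to 379 cells and 5 to 25 Oxtr UMIs per library, which limits their contrasts.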

Other observations

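Basal cells that held a UMI of Mki67 or Top2a, genes of dividing cells, had a lower Oxtr-positive share after thinning than other basal cells in 10 of 12 libraries. In adult FVB/NJ replicate 1 the shares were 11.1% of 433 and 28.4% of 3398 cells, and in day 18.5 replicate 1 they were 48.8% of 127 and 59.0% of 2145 cells. Shares in cycling cells were higher in adult C57BL/6 (40.4% of 47 against 37.3% of 2510) and day 18.5 replicate 2 (56.0% of 193 against 49.5% of 1793). The exact two-sided sign-flip permutation test over the 12 libraries gave p = 0.0376 (smallest possible 0.00049), for a split that was chosen after values were seen.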
